A study of Mus musculus with 7 samples.

Results

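The genes of MHC class II presentation were followed in mouse Langerhans cells (LC), the dendritic cells of the epidermis, with and without prior irradiation. They are 10 of the 21755 gene symbols on the array, taken by symbol: the chain genes H2-Aa, H2-Ab1 and H2-Eb1, the peptide-loading genes H2-DMa, H2-DMb2, H2-Oa and H2-Ob, and Cd74, Ciita and Ifi30. Each had 1 probe set. The samples were 4 control samples from naive mice (CTR LC) and 3 from mice pretreated with 12 Gy of ionizing radiation (LC + IR), all from adult wildtype C57:Bl6 animals. Cells were sorted by flow cytometry, pooled to more than 10000 per sample and hybridised as total RNA. The labels give neither the interval between irradiation and sorting nor the sex of the mice, nor the sort gate. Whether samples within a group derive from different animals is not stated either, and the p-values below therefore describe scatter among these arrays that could be purely technical. An earlier record is cited for control replicates 1 and 4 and for no other sample.

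MHC class II molecules present peptides from endocytosed proteins to CD4+ T cells, and dendritic cells carry them at high density. Their chains assemble on the invariant chain, encoded by Cd74, travel to endosomes, and exchange the remnant of that chain for a peptide with the help of H2-DM, which H2-O restrains. Transcription is switched on by CIITA, a coactivator with no DNA-binding site of its own that is recruited by factors sitting on paired promoter elements, the X box (bound by the RFX complex) and the Y box (bound by NF-Y).

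The promoter elements are printed here because CIITA is recruited through them where a gene carries them. RefSeq promoter windows (GRCm38.p6, 250 bases before to 50 after the gene start) were searched for 7 of the 10 genes, in 8 windows. Windows of H2-Ab1, Ciita and Cd74 were not used, so the counts below leave these genes out. The letters TGATTGG, which hold the core of the Y box, and AACNNATG, part of the X box, were searched on both strands, and the matches of the 2 motifs did not overlap. TGATTGG was found in 5 of the 7 genes and in 7.82% of all 32851 windows, and AACNNATG in 3 of the 7 and in 8.86% of all windows. The 57 bases around the Y box letters follow, 5′ to 3′ on the strand of the gene, with matches in capitals.
H2-Eb1, chr17:34305766-34305822, plus strand: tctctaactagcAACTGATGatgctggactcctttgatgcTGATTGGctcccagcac
H2-DMb2, chr17:34145117-34145173, plus strand: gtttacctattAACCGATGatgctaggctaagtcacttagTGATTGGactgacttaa
H2-Ob, chr17:34238806-34238862, plus strand: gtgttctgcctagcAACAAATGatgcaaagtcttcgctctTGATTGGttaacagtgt
H2-Aa, chr17:34287857-34287913, minus strand: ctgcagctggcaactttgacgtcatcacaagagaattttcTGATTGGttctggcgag
H2-Oa, chr17:34092294-34092350, plus strand: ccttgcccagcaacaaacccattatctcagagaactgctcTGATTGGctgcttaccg
In H2-Eb1, H2-DMb2 and H2-Ob the 2 matches were separated by 20, 21 and 18 bases. The Y box letters began 45 to 92 bases before the start in the 5 genes. No match to either motif lay in the windows of H2-DMa and Ifi30, which says only that these letters are not in those windows.

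Levels are log2 intensities, and a gene was tested if its mean over the 7 arrays lay above 6.07 log2, the limit that left out the lowest 40% of symbols. All 10 genes passed this limit, which leaves 13053 genes in the test. The library labelled irradiated replicate 1 stood apart: its Pearson correlations with the other arrays over the genes tested were 0.650 to 0.728, where the other 6 arrays correlated at 0.858 to 0.967. Genes are not independent replicates, and these correlations only describe the arrays. The groups also differed in Xist, the RNA of the inactive X chromosome, at 10.94 to 11.71 in controls and 5.31 to 5.93 in irradiated samples, and in the Y-linked Ddx3y, at 4.35 to 5.45 and 6.67 to 8.71. Sex and irradiation therefore cannot be told apart in any comparison below.

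All 10 class II genes were at their lowest in the library labelled irradiated replicate 1, as were 29.0% of all genes tested. There the 10 levels lay between 6.10 and 8.07, and the distance below the control mean ran from 1.18 log2 in H2-Oa to 6.52 log2 in H2-Aa. The median of that array over all probe sets was 6.46, so these distances may be lower bounds. In irradiated replicates 2 and 3 the 10 genes did not all fall. Their H2-Aa, H2-Ab1 and H2-Eb1 levels lay above those of every control, and their H2-DMb2 and Ifi30 levels lay below every control. The summed intensity of the 10 genes was 42966 to 48809 in the controls, 47038 and 49737 in irradiated replicates 2 and 3, and 1313 in irradiated replicate 1. Outside irradiated replicate 1, H2-Aa, H2-Ab1, H2-Eb1 and Cd74 made up most of this sum, so it says little about the other members.

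**Figure D1:**
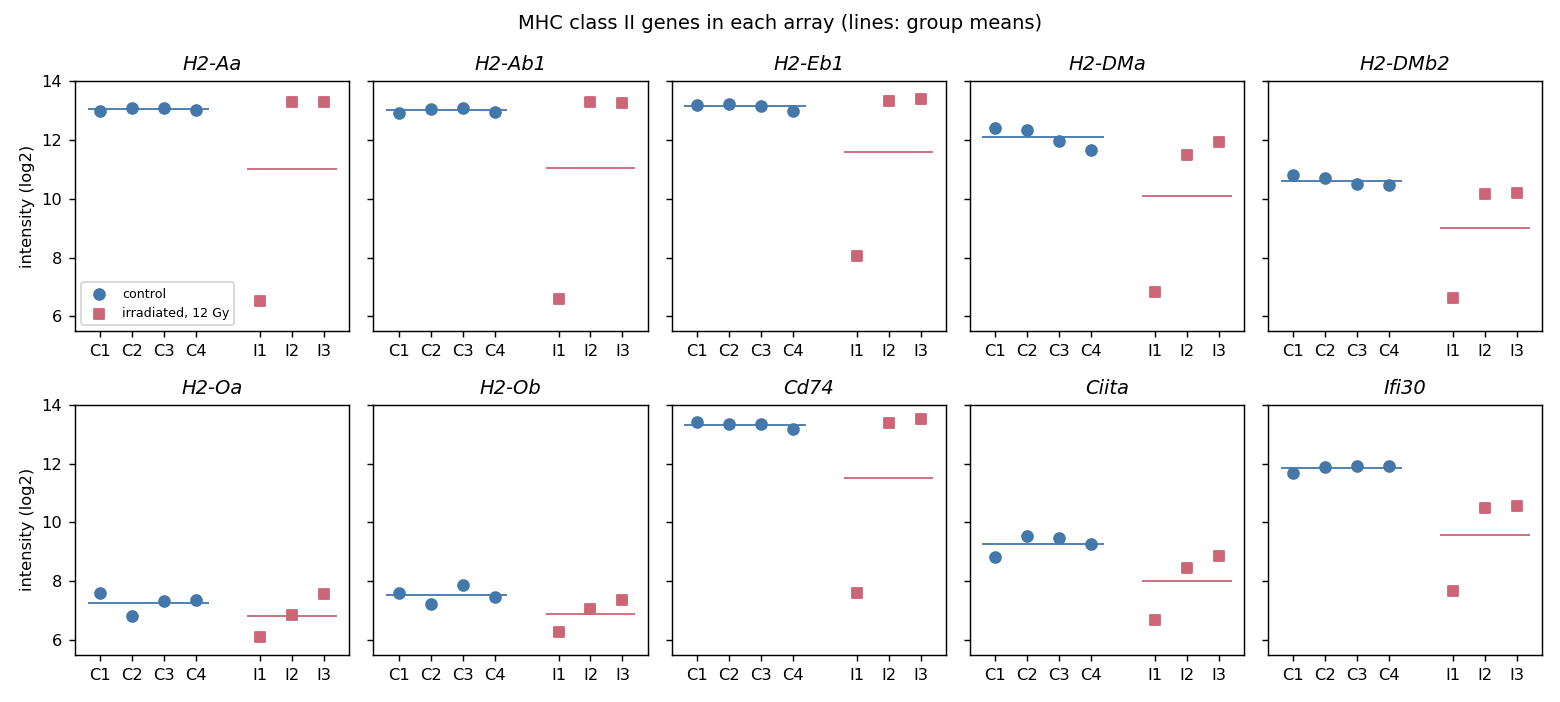
Log2 intensity (vertical axis) of each class II gene in control replicates 1 to 4 (C1 to C4) and irradiated replicates 1 to 3 (I1 to I3), with a line at each group mean. In all 10 panels irradiated replicate 1 is the lowest array, and in Ifi30 irradiated replicates 2 and 3 also lie below all controls.

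Most markers of the sorted cells were low in the same library, with Epcam at 7.34 log2 against 8.74 to 9.76 in the controls. Cx3cr1 (7.81) and Cd1d1 (5.71) were within their control ranges of 6.88 to 8.39 and 5.18 to 5.75 in that library. Cd207, the gene of langerin that defines LC, stood at 5.64 log2 there and Ptprc, the gene of the leukocyte antigen CD45, at 5.61, both under the limit for dim genes. Ptprc, which does not tell LC from other leukocytes, was at 9.21 to 10.41 in the controls. Cd207 stood at 11.49, 10.96, 8.85 and 8.91 in control replicates 1 to 4 and at 12.35 and 11.86 in irradiated replicates 2 and 3. By Cd207 the labelled cell type was borne out in these arrays, less strongly in control replicates 3 and 4, but not in irradiated replicate 1. The other LC markers did not all follow Cd207 in irradiated replicates 2 and 3. Itgax stood there at 8.93 and 9.33, below its controls at 10.17 to 10.34, and Epcam at 8.87 and 8.77, within its controls. Without irradiated replicate 1, 4 of the 7 LC markers tested had a log2 fold change below 0 and 3 above 0. Control replicates 3 and 4 also had the highest sums of monocyte and macrophage markers, at 12922 and 9906. The summed intensity of 8 keratinocyte markers was 14254 in irradiated replicate 1, 5531 and 4335 in replicates 2 and 3, and 2136 to 10201 in the controls. In irradiated replicate 1, Krt1 (8.41 log2) was below its controls (8.54 to 11.20) and Lor (6.53) within its controls (5.20 to 6.87). The other listed keratinocyte markers were above all controls there. The summed intensity of 7 fibroblast markers was 22749 in irradiated replicate 1, against 4185 and 1052 in replicates 2 and 3 and 1600 to 7470 in the controls. The sums of T cell markers were 954 in irradiated replicate 1, 594 and 1183 in replicates 2 and 3 and 400 to 485 in the controls. These sums had different members behind them. In irradiated replicate 1, Thy1 was highest at 9.21 log2 (controls 6.82 to 7.63), and Cd3g at 5.25 lay within the controls. In replicates 2 and 3, Cd3e (7.30 and 8.71) and Cd3g (6.57 and 8.46) lay above all controls, which were at 6.17 to 6.67 and 5.05 to 5.63. With all 7 arrays, 0 of 7 keratinocyte, 0 of 7 fibroblast and 0 of 4 T cell markers tested passed by limma. The same held without irradiated replicate 1, where Cd3e had a log2 fold change of 1.62 (SE 0.36, limma adjusted p = 0.0528). Cd3g was not tested, as its mean lay under the limit for dim genes. Of the 4 dermal dendritic cell markers tested, 1 was called lower, Wdfy4 (log2 fold change -1.29, limma adjusted p = 0.0396, and -1.20, adjusted p = 0.0476, without irradiated replicate 1). Itgae and Clec10a were negative and Cd209a positive in both comparisons, and none of them passed. Over all genes tested, 1.56% were called lower and 0.115% higher with all 7 arrays. Without irradiated replicate 1 these shares were 3.06% and 1.58%. The part of other cells in the low class II levels was not tested, and in bulk samples fewer cells of a type and less RNA per cell cannot be told apart. Because of this library, each comparison is given with it and without it.

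**Figure D2:**
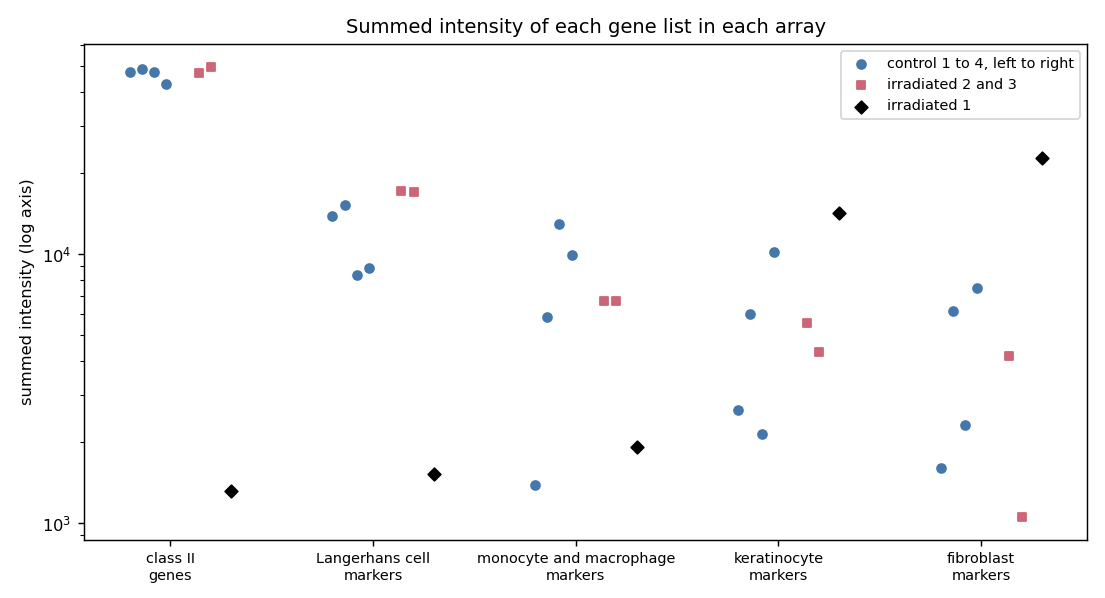
Summed intensity (logarithmic vertical axis) of the 10 class II genes and of 4 marker lists, with control replicates 1 to 4 as circles from left to right, irradiated replicates 2 and 3 as squares and irradiated replicate 1 as a diamond. The class II sum is 1313 in irradiated replicate 1 and at least 42966 in the other 6 arrays, while the keratinocyte and fibroblast sums are highest in irradiated replicate 1.

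With all 7 arrays, none of the 10 genes passed the test. The log2 fold changes (irradiated minus control) were all negative, from -2.28 to -0.44, with standard errors of 0.28 to 1.51 and limma adjusted p-values of 0.126 to 0.492. Over all genes tested, 1.56% were called lower and 0.115% higher at an adjusted p under 0.05. At an unadjusted p under 0.05 the count was 3 of 10 (H2-Ob, Ciita and Ifi30), where 19.7% of all genes tested were. The groups did not overlap in 2 of the 10 (H2-DMb2 and Ifi30), against 18.7% of all genes tested. The median log2 fold change of the 10 genes was -1.71, where the median of all genes tested was -0.050.

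Without irradiated replicate 1, only Ifi30 passed the test. The log2 fold changes of the chain genes and Cd74 were positive and small, and those of the other 6 genes were negative, with that of H2-Oa near 0. The median log2 fold change was -0.20, beside -0.047 over all genes tested, with 6 genes negative and 4 positive. Of the 10 genes, 1 was called lower and 0 higher by limma, where 3.06% of all genes were called lower and 1.58% higher. At an unadjusted p under 0.05 there were 5 of the 10 and 21.7% of all genes. The groups did not overlap in 5 of the 10, 2 lower and 3 higher, against 30.5% of all genes (20.3% lower and 10.2% higher).

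**Figure D3:**
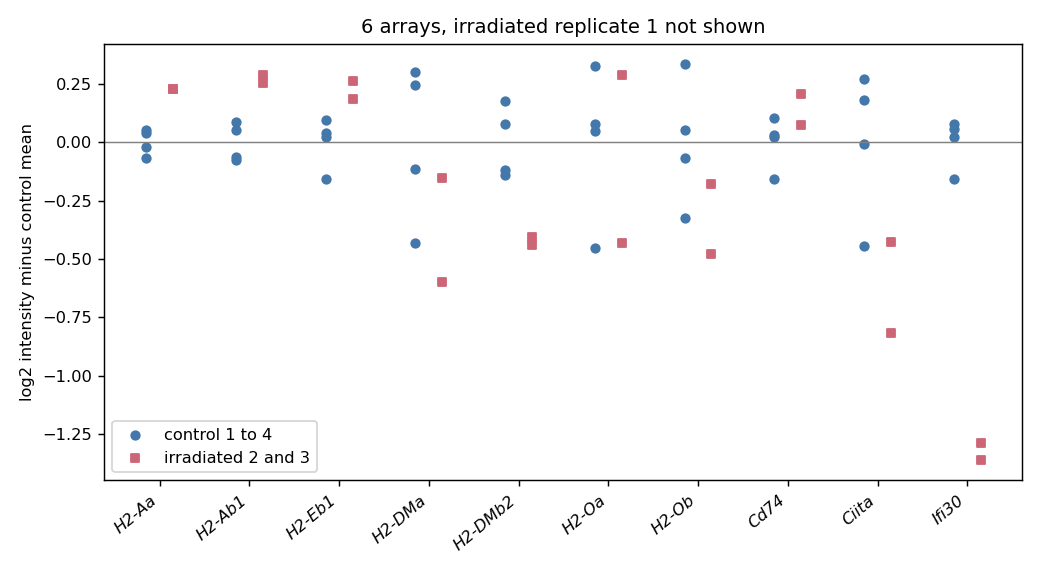
Log2 intensity minus the control mean (vertical axis) of each class II gene in control replicates 1 to 4 (circles) and irradiated replicates 2 and 3 (squares). The irradiated points lie above all controls for H2-Aa, H2-Ab1 and H2-Eb1 and below all controls for H2-DMb2 and Ifi30, and the Ifi30 points are the farthest from 0.

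The genes of the antigen-presenting chains were nearly constant over the controls. H2-Aa, which encodes the alpha chain of I-A, stood at 12.98, 13.08, 13.10 and 13.02 log2 in control replicates 1 to 4 and at 6.52, 13.27 and 13.27 in irradiated replicates 1 to 3. H2-Ab1, the gene of its beta chain partner, stood at 12.93, 13.06, 13.09 and 12.94 in the controls and at 6.61, 13.29 and 13.26 in the irradiated samples. In both genes irradiated replicates 2 and 3 lay above all controls and replicate 1 far below them. Without that replicate, the log2 fold change was 0.23 (SE 0.089, limma adjusted p = 0.196) for H2-Aa and 0.27 (SE 0.096, adjusted p = 0.160) for H2-Ab1, which is 1.17-fold and 1.21-fold. An exact permutation test of either gene over the 15 splits of 4 and 2 arrays gave p = 0.0667 (two-sided), the smallest it can give.

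H2-Eb1 encodes the beta chain of I-E, the other class II molecule of the mouse. It stood at 13.18, 13.23, 13.16 and 12.98 log2 in the controls and at 8.07, 13.33 and 13.40 in the irradiated samples. Irradiated replicates 2 and 3 lay above all controls, with a log2 fold change of 0.22 (SE 0.103, limma adjusted p = 0.266), and replicate 1 lay far below them. The I-E alpha chain gene is defective in C57BL/6 mice. Its probe set, listed as H2-Ea-ps, lay at 4.68 to 5.18 in the 7 arrays, under the limit for dim genes.

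Cd74 followed the chain genes. It stood at 13.42, 13.34, 13.35 and 13.16 log2 in the controls and at 7.61, 13.39 and 13.53 in the irradiated samples. Irradiated replicate 2 lay within the controls and replicate 3 above them (log2 fold change without replicate 1 0.14, SE 0.104, limma adjusted p = 0.502). Measured within each array and set to 0 at the control mean, the log2 ratio of H2-Ab1 to H2-Aa stayed between -0.042 and 0.035 in controls and was 0.063 and 0.026 in irradiated replicates 2 and 3. The same ratio of Cd74 to H2-Aa was -0.135 to 0.171 in controls and -0.153 and -0.019 in those 2 arrays.

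The H2-DM genes encode the chaperone that frees the peptide groove. H2-DMa stood at 12.40, 12.34, 11.98 and 11.66 log2 in control replicates 1 to 4 and at 6.82, 11.49 and 11.94 in irradiated replicates 1 to 3. H2-DMb2, a gene of its beta chain, stood at 10.79, 10.69, 10.50 and 10.48 and at 6.61, 10.17 and 10.21. The irradiated samples all lay below the controls in H2-DMb2, while irradiated replicate 3 lay within the controls in H2-DMa. With all 7 arrays an exact permutation test over 35 splits gave p = 0.0286 (two-sided), the smallest possible, for H2-DMb2 and p = 0.0571 for H2-DMa, and the limma adjusted p-values were 0.322 and 0.361.

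Without irradiated replicate 1, H2-DMb2 had a log2 fold change of -0.42 (SE 0.172, limma adjusted p = 0.211) and H2-DMa one of -0.38 (SE 0.244, adjusted p = 0.438). The log2 ratio of H2-DMb2 to H2-Aa, set to 0 at the control mean, was -0.168 to 0.246 in the controls and -0.668 and -0.633 in irradiated replicates 2 and 3. This ratio could not overlap between the groups, since H2-DMb2 lay below all controls there and H2-Aa above them, so it adds nothing to the levels. The same ratio of H2-DMa to H2-Aa was -0.411 to 0.372 in the controls and -0.825 and -0.379 in those arrays, so the groups overlapped. H2-Aa itself lay above all controls in those arrays, which lowers both ratios. H2-DMb2 has a closely related neighbour, H2-DMb1, which has no row of that name in the table, and the probe set may take signal from both.

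H2-Oa and H2-Ob encode the H2-O dimer, a modulator of H2-DM known mainly from B cells. H2-Oa stood at 7.60, 6.83, 7.32 and 7.36 log2 in the controls and at 6.10, 6.85 and 7.56 in the irradiated samples. H2-Ob stood at 7.61, 7.23, 7.89 and 7.48 in the controls and at 6.27, 7.07 and 7.37 in the irradiated samples. Both genes overlapped between the groups with and without irradiated replicate 1, and without it the log2 fold changes were -0.072 (SE 0.271, limma adjusted p = 0.922) and -0.33 (SE 0.208, adjusted p = 0.425). The sign of the H2-Oa value was not stable, at 0.13 between controls 2 and 3 and irradiated replicates 2 and 3, and 0.0023 after quantile normalisation without replicate 1.

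Ciita, the switch of the class II program, stood at 8.83, 9.55, 9.46 and 9.27 log2 in control replicates 1 to 4 and at 6.68, 8.46 and 8.85 in irradiated replicates 1 to 3. Irradiated replicates 1 and 2 lay below every control and replicate 3 just above control replicate 1. The log2 fold change was -1.28 with all arrays (SE 0.50, limma adjusted p = 0.218) and -0.62 without irradiated replicate 1 (SE 0.255, adjusted p = 0.214). With array weights, which count a discordant array for less, it was -0.97 (limma adjusted p = 0.0228), in a comparison that called 20.3% of all genes lower. The log2 ratio of Ciita to H2-Aa, set to 0 at the control mean, was -0.376 to 0.232 in the controls and -1.04 and -0.653 in irradiated replicates 2 and 3. Both ratios lay below all controls, although Ciita itself overlapped them. H2-Aa lay above all controls in those 2 arrays, which lowers any ratio to it. How many other genes would separate in this way was not computed.

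Ifi30 encodes GILT, an interferon-inducible thiol reductase that opens disulfide bonds of antigens in the lysosome. It stood at 11.69, 11.87, 11.90 and 11.93 log2 in control replicates 1 to 4 and at 7.65, 10.49 and 10.56 in irradiated replicates 1 to 3. All 3 irradiated samples lay below all 4 controls, whose own range was 0.23 log2. The control mean was 11.85 ± 0.11 (SD, n = 4) and that of irradiated replicates 2 and 3 was 10.52 ± 0.053 (SD, n = 2), 2.50-fold lower.

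Ifi30 fell by 1.32 log2 without irradiated replicate 1 (SE 0.142, limma adjusted p = 0.00959), in 2 of 2 samples. The exact permutation test over the 15 splits without that replicate gave p = 0.0667 (two-sided), the smallest possible. With all 7 arrays the log2 fold change was -2.28 (SE 0.66, limma adjusted p = 0.126), and the exact permutation test over 35 splits gave p = 0.0286 (two-sided), again the smallest possible. With a second irradiated array left out, the log2 fold change was -1.29 from replicate 3 alone (limma adjusted p = 0.112) and -1.36 from replicate 2 alone (adjusted p = 0.0697). In these fits the spread comes from the controls only, and the lone array is assumed to vary like them. Against the controls whose labels cite no earlier record (replicates 2 and 3) the log2 fold change of irradiated replicates 2 and 3 was -1.36 (adjusted p = 0.0739). The log2 ratio of Ifi30 to Cd74, set to 0 at the control mean, was -0.258 to 0.233 in the controls and -1.44 and -1.50 in those 2 irradiated samples.

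The 8 LC markers summed to 17147 and 17020 in irradiated replicates 2 and 3, where Ifi30 was low, and to 8364 to 15213 in the controls. That sum is dominated by Mfge8 and Cd207, and the median log2 fold change of the 7 LC markers tested was -0.51 without irradiated replicate 1, with 4 below 0. By limma 0 of the 7 rose and 1 fell, where 1.58% of all genes tested rose and 3.06% fell. Markers of monocytes and macrophages, which also express Ifi30, had 0 of 6 called and summed to 1381 to 12922 in the controls and to 6666 and 6699 in irradiated replicates 2 and 3. The part of these cells in the Ifi30 levels was not tested. The LC marker that fell was Itgax, the gene of CD11c, singled out after its values were seen (log2 fold change -1.14, SE 0.188, limma adjusted p = 0.0247).

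**Figure D4:**
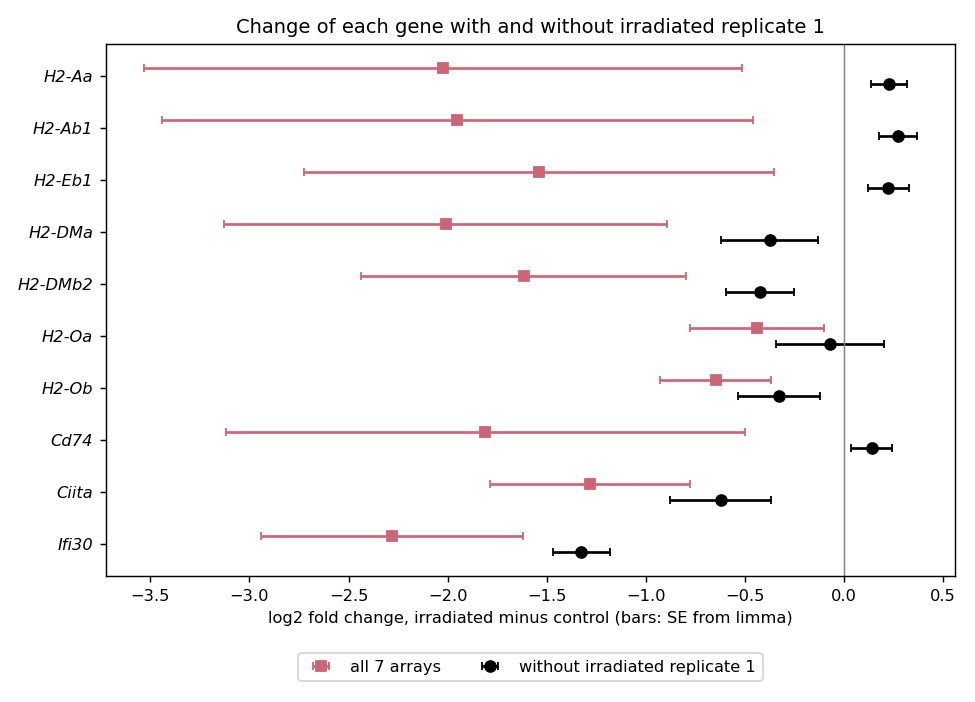
Log2 fold change of each class II gene (horizontal axis, irradiated minus control, bars of 1 SE from limma), with all 7 arrays (squares) and without irradiated replicate 1 (circles). H2-Aa, H2-Ab1, H2-Eb1 and Cd74 change sign between the 2 comparisons, and Ifi30 is at -2.28 and -1.32.

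Of 13 factors that act on class II promoters, 0 passed with all 7 arrays, and 2 rose and 0 fell without irradiated replicate 1, where 1.58% of all genes rose and 3.06% fell. The medians were -0.086 and 0.039. The risers were Irf4, a transcription factor of dendritic cells, by 2.01 log2 (SE 0.35, limma adjusted p = 0.0286), and Prdm1, whose product represses Ciita in plasma cells, by 1.01 (SE 0.214, adjusted p = 0.0465). Irf4 stood at 8.52, 7.65, 8.62 and 7.59 in the controls and at 5.20, 10.19 and 10.02 in the irradiated samples. Prdm1 stood at 8.47, 8.61, 8.77 and 8.71 in the controls and at 6.37, 9.38 and 9.91 in the irradiated samples. In both genes irradiated replicates 2 and 3 lay above all controls.

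Among the 3 of these factors with the highest probe signal, Sfpi1 (now Spi1, the gene of PU.1) stood at 10.91 to 11.22 log2 in the controls and at 6.60, 10.20 and 10.95 in the irradiated samples. Nfya, a subunit of the Y box factor, had a control mean of 9.17 ± 0.12 (SD, n = 4) and stood at 8.51, 9.60 and 10.11 in the irradiated samples. Irf8, a factor of the dendritic lineage, stood at 9.04 to 9.38 in the controls and at 6.95, 8.56 and 9.06. None of the 3 passed by limma in either comparison. The subunits of the X box factor were singled out after their values were seen. In irradiated replicate 1, Rfx5 stood at 6.88 and Rfxap at 6.94, within the control ranges of 6.80 to 7.17 and 6.94 to 7.04, and Rfxank stood at 7.22, below its control range of 7.37 to 7.49.

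Lysosomal proteins that process antigen gave no call. Of 13 genes, 0 passed with all 7 arrays and 0 without irradiated replicate 1 by limma, and the medians were -0.31 and -0.13. Those with the highest probe signal were Cst3 (cystatin C, an inhibitor of cathepsins), Ctsb (cathepsin B) and Cd68, a lysosomal membrane protein of phagocytes. Their log2 fold changes without irradiated replicate 1 were -0.104, 0.070 and -0.133, with adjusted p-values of 0.655, 0.918 and 0.873. Ctss, the cathepsin that trims the invariant chain, was also singled out after its values were seen. It stood at 9.34, 9.79, 10.63 and 10.75 in the controls and at 7.04 in irradiated replicate 1, and replicates 2 and 3 lay within the controls (log2 fold change without replicate 1 -0.342, SE 0.42, limma adjusted p = 0.717).

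Of the other class II genes and genes of class II turnover, 8 were found and 7 tested. With all 7 arrays 0 passed, and without irradiated replicate 1 there were 2 that rose and 0 that fell, beside the same 1.58% and 3.06% of all genes. The medians were -0.063 and 0.53. Cd83, whose product keeps class II molecules on the surface by opposing their ubiquitination, stood at 11.11, 11.13, 11.23 and 10.89 in the controls and at 7.86, 12.82 and 12.39 in the irradiated samples. It rose by 1.52 (SE 0.176, limma adjusted p = 0.0104). Cd82, a tetraspanin gene, stood at 10.36, 10.70, 10.09 and 10.27 and at 8.74, 11.37 and 11.43, and rose by 1.04 (SE 0.204, adjusted p = 0.0386). In both genes irradiated replicates 2 and 3 were above every control and replicate 1 below. Cd81, another tetraspanin gene and the next by probe signal, stood at 7.48 to 9.95 in the controls and at 11.40, 9.62 and 9.83 in the irradiated samples, and did not pass in either comparison.

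Other genes shared the profile of the class II set, taken as the median per array of the 10 genes after each was centred on its mean. Over the 7 arrays the smallest root mean square differences from that profile among 11675 named genes were those of Stap1 (0.130 log2), Alox5ap (0.145), Sfpi1 (0.164), Klrb1b (0.196) and Lcp1 (0.229). Their levels in irradiated replicate 1 were 4.88, 6.51, 6.60, 5.95 and 6.72, where the lowest value in any other array was 9.13 for Stap1 and 11.54 for Lcp1. The members themselves differed from their profile by 0.248 (H2-DMb2) to 1.20 (H2-Oa). Over the 6 arrays without irradiated replicate 1 the profile was nearly flat, between -0.302 and 0.142, and the closest genes were Mid1ip1 (0.027), Slc35b2 (0.033), Sh3rf1 (0.034), Zfp687 (0.034) and Pisd (0.036). Ifi30 lay farthest from that profile of the 10 members, at 0.572.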

How the data were processed

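RNA of 7 sorted LC samples was measured on arrays. The authors deposited intensities, 1 per probe set and array, made by RMA per the submitters' processing notes and given on a linear scale. The sources used here name no array design or genome build, nor which arrays were normalised as one set. Both deposited tables held the same intensities (174454 of 174454 values equal within 1e-09). Array medians lay at 6.33 to 6.46 log2.

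Log2 was taken, the probe set with the highest mean was kept per symbol, the lowest 40% of symbols were left out, and groups were compared with lmFit and eBayes (trend) of limma (version 3.58.1, R 4.3.3). Adjusted p-values are Benjamini-Hochberg values across 13053 genes, with a threshold of 0.05. Single genes had two-sided exact permutation tests, not adjusted over the set. The number of arrays limits the precision. The limma script was tested on simulated data.

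The 10 genes and all lists were chosen with earlier results of these data known. From each list and for each of the comparisons with and without irradiated replicate 1, genes past the threshold were named, or, where none passed, the 3 with the highest mean. Likeness took the 5 smallest root mean square differences, leaving out unnamed gene models and receptor segments. The alternatives were other filters, variance models, array weights, scalings, tables, probe set rules, log offsets, the replicate block, the earlier record cited by control labels 1 and 4, and each array left out. Those combined with the omission of irradiated replicate 1 were added after seeing the data.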

Additional observations from a re-analysis of the deposited data

Results flagged for a closer look

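None of the 10 class II genes had a control sample standing apart by Dixon's criterion. Among 90 genes of the lists examined, 2 had one, both marker genes and both in control replicate 3, where chance gives about 1 in 20. Col3a1 of the fibroblast list was at 7.47 log2 there, below the 7.77 to 7.83 of the other controls. Clec9a of the dermal dendritic cell list was at 5.57 there, above the 4.76 to 4.82 of the other controls, all under the limit for dim genes.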

How the results depend on the processing

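With all 7 arrays, the number of class II genes called lower was 0 under 20 of 22 alternatives, 2 with array weights (Ciita and Ifi30; 2645 of all 13053 genes were lower there), and 0 to 1 as each array was left out in turn; none was called higher under the 22. The median of the 10 genes ran from -2.61 to -0.20 as each array was left out and was -0.11 between controls 2 and 3 and irradiated 2 and 3. As each array was left out, H2-Aa ran from -3.15 to 0.23, H2-Ab1 from -3.07 to 0.27, H2-Eb1 from -2.44 to 0.22 and Cd74 from -2.82 to 0.14. Between controls 2 and 3 and irradiated 2 and 3 they were 0.18, 0.20, 0.17 and 0.11, and H2-Oa was 0.13. H2-DMa, H2-DMb2, H2-Ob, Ciita and Ifi30 stayed negative under all 22.

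With irradiated replicate 1 left out, the count of class II genes called lower was 1 under 9 of 13 alternatives, 0 with the replicate block or the earlier record as a term, and 0 to 1 as a further array was left out. The median then ran from -0.44 to 0.028. H2-Oa ran from -0.43 to 0.29, and was 0.13 with the block or the record and 0.0023 with quantile normalisation. Ifi30 ran from -1.38 to -1.29 over the 13, with adjusted p from 0.00486 to 0.112. H2-Aa, H2-Ab1, H2-Eb1 and Cd74 stayed positive under all 13, between 0.074 and 0.36, and none passed.

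The replicate numbers share nothing else in the labels, and same-numbered samples correlated at 0.021, -0.055 and 0.168 in their deviations. A block by replicate number leaves control replicate 4 without a partner, and also control 1 once irradiated 1 is out. It called 0 class II genes in either comparison, and of all genes 0 with 7 arrays and 1 lower and 2 higher without irradiated replicate 1. Over all genes, 204 were lower and 15 higher with 7 arrays, and 0 to 2645 lower and 0 to 831 higher over the alternatives, both maxima with array weights. Without irradiated replicate 1 there were 399 lower and 206 higher, and with quantile normalisation 355 and 298. These counts rest on single arrays: they were 1081 and 364 without control 1, 59 and 25 without control 2, 132 and 59 without control 3, 99 and 46 without control 4, 0 and 1 without irradiated 2, and 1 and 4 without irradiated 3. The causes of these shifts were not tested.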
